A study of Oryza sativa with 6 samples.

Results

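Genes for potassium and sodium transporters and channels were examined in rice roots by matching names and synonyms in the gene tables to the HAK, HKT, AKT, KAT, TPK, NHX, SOS1, CNGC and CHX families. The match gave 35 genes, of which 26 had at least 1 probe set on the array, 33 probe sets in all, out of 17905 genes with a probe set of their own. The matched genes were 25 HAK, 7 HKT, AKT1, TPKa and TPKb. No name of the KAT, NHX, SOS1, CNGC or CHX type was matched, and those genes are not analysed here. The 9 matched genes without a listed probe set, HAK6, HAK19, HAK24, HKT1;1, HKT1;3, HKT1;4, HKT2;1, HKT2;3 and HKT2;4, are likewise not analysed here. The members with values were therefore 22 HAK genes, HKT1;5, AKT1, TPKa and TPKb.

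The plants were Huahui 1 (HH1), a transgenic line in the background of the rice cultivar Minghui 63, and non-transgenic Minghui 63 (MH63) itself. Both were sampled as roots at 30 days, after germination in water and growth in nutrient solution in a climate chamber. HH1 is known as an insect-resistant line that carries a gene for an insecticidal protein of Bacillus thuringiensis, so the comparison is of 1 transgenic line with its parent. Each genotype had 3 biological replicates by their labels, with 1 array each, and the sources used here do not say how many plants made up a replicate. If the replicates were not grown separately, the p-values measure only the spread between these samples. The submitters' design text gives as purpose a search for genes and pathways with altered expression in HH1 roots, with unintended effects of the transgene in view.

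Plants take up potassium from very dilute solution through proton-coupled carriers, and from richer solution mainly through voltage-gated channels. The HAK carriers (HAK/KUP/KT family) are the largest potassium transporter family of rice, and HAK1 and HAK5 are its best known high-affinity uptake and translocation carriers in roots. AKT1 is the inward-rectifying channel of the root surface. HKT1;5, also called SKC1, takes sodium out of the xylem sap and so keeps it from the shoot, and TPKa and TPKb are tandem-pore potassium channels of vacuole membranes.

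The array signals are in arbitrary units on a linear scale, with 1 value per probe set and array, and probe sets bind with unequal strength. Signals are therefore compared only between arrays for the same probe set, never between genes. Background was read on each array from 64 reporter probe sets for foreign marker genes, whose 95th percentile ran from 37.1 to 42.3 (the reporter-probe level). Array medians ran from 33.1 to 33.8, and correlations of log2 signals between arrays, taken across probe sets, which are not independent replicates, were 0.932 to 0.966 within HH1, 0.971 to 0.980 within MH63 and 0.947 to 0.984 between genotypes. With 3 arrays a group, precision is limited by their number. Of the root markers, 7 of 8 probe sets were above background on all 6 arrays, including those of the silicon transporters Lsi1 and Lsi2. OsSCR1, a regulator of root radial patterning, was above it on none. Green tissue markers were above background on all arrays for 5 of 16 probe sets, with a summed signal from 742 to 2455 in HH1 and from 675 to 3078 in MH63. Seed storage markers were so for 1 of 7, with a summed signal of 2689 in HH1 replicate 1 and from 344 to 567 on the other arrays. GLUA-3 was above background on every HH1 array, at 110, 157 and 51.6, and on no MH63 array, at 11.1, 9.59 and 6.87. It was too dim on average to be tested, and in all other seed probe sets the genotypes overlapped. The part of these other tissues in the values below was not tested.

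A signal above background on all 6 arrays was found for 21 of the 33 probe sets. They stand for 18 genes, 14 of them HAK carriers, with HKT1;5, AKT1, TPKa and TPKb. A probe set of HAK5 and that of HAK16 exceeded background on some arrays, and 10 probe sets on none. The last group stayed between 3.83 and 36.0. In 7 genes no probe set rose above background on any array, namely HAK4, HAK14, HAK17, HAK20, HAK22, HAK26 and HAK27. In these roots they were not well above background in either genotype, so no difference between genotypes is given for them.

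**Figure D1:**
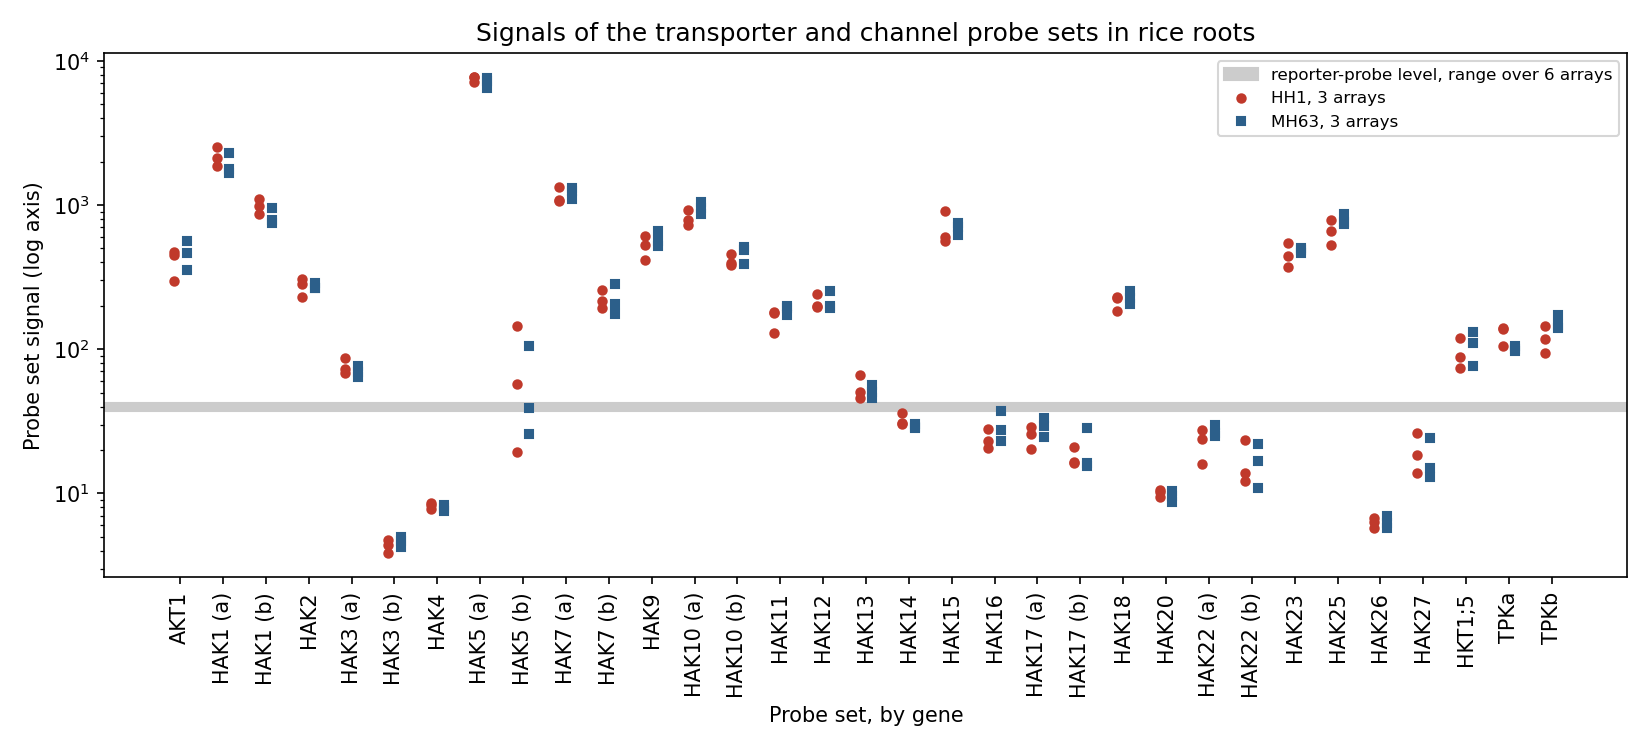
Signal of each of the 33 probe sets (log axis, arbitrary units) by gene, with 3 HH1 arrays as circles and 3 MH63 arrays as squares. The grey band spans the reporter-probe level of the 6 arrays (37.1 to 42.3), and letters mark probe sets of the same gene, with (a) the brighter. HH1 and MH63 points of a probe set overlap in range for every probe set but that of TPKa, and heights of different probe sets are not comparable.

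For the test between genotypes, probe sets in the brighter 50% of the array by mean log2 signal were used, 28597 in all, without regard to genotype. This kept 22 of the member probe sets, for 18 genes, and left 11 untested. None of the 22 passed limma's test with Benjamini-Hochberg adjustment over all 28597 at a threshold of 0.05, where 0.112% of all tested probe sets did, 0.0839% with HH1 higher and 0.028% with HH1 lower. Even before adjustment none had a p under 0.05, against 4.01% of all tested probe sets. The smallest unadjusted p was 0.064 (limma), and the adjusted p was 1 for every member. For 18 of the 22 probe sets (81.8%) the difference between genotypes was smaller than the larger of the group SDs on the log2 scale, as it was for 81.9% of all tested probe sets. The other 4 belonged to TPKa, TPKb, HAK1 and HAK10.

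The intervals give, for each probe set on its own, the differences compatible with these values. The 95% interval of the log2 difference (limma, not adjusted for the number of tests) stayed between -1 and 1, less than a 2-fold change either way, for 21 of the 22 probe sets, and for 90.5% of all tested probe sets. Among these 21 the intervals reached down to -0.83, for TPKb, and up to 0.69, for TPKa. The remaining probe set was the dimmer one of HAK5. Changes inside these intervals remain possible with 3 arrays a group. The intervals are not limits of detection, since a call also had to pass adjustment over all 28597 tested probe sets.

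**Figure D2:**
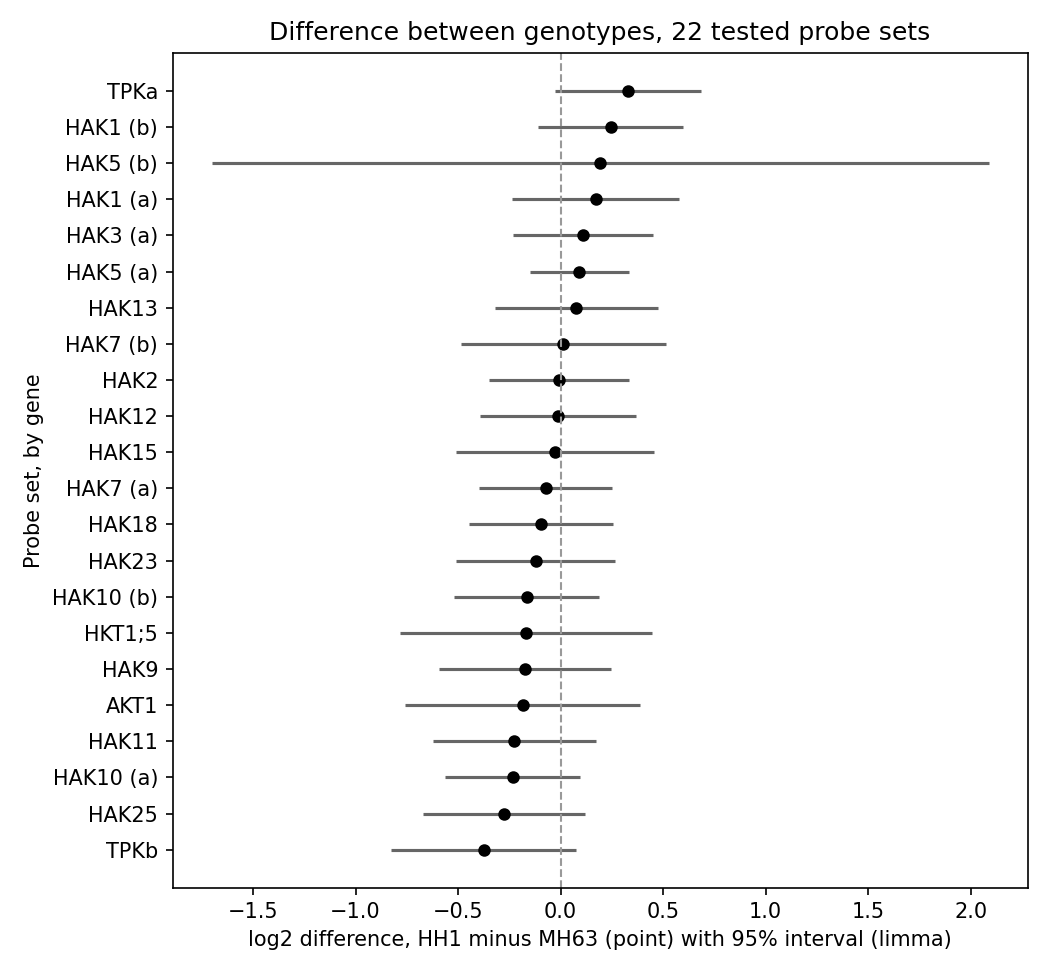
log2 difference of HH1 minus MH63 for the 22 tested probe sets (points), with 95% intervals from limma (lines) and a dashed line at 0. Every interval includes 0, and all but that of HAK5 (b) lie between -1 and 1.

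HAK1 and HAK5, the high-affinity carriers, were measured well above background. HAK5 (LOC4326945) had signals of 7732, 7728 and 7065 in HH1 replicates 1, 2 and 3 and of 6444, 7187 and 7535 in MH63 replicates 1, 2 and 3 in its brighter probe set. The groups overlapped, and the arrays lay close together. HH1 averaged 7508 ± 384 (SD, n = 3) and MH63 averaged 7055 ± 557 (SD, n = 3), a log2 difference of 0.09 (SE 0.10), which ran from 0.028 without MH63 replicate 1 to 0.14 without MH63 replicate 3. The 95% interval, 0.902-fold to 1.26-fold, was the narrowest of the 22.

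HAK5 also had a dimmer probe set with another pattern. It read 145, 57.1 and 19.2 in HH1 replicates 1, 2 and 3 and 39.2, 106 and 25.7 in MH63 replicates 1, 2 and 3. HH1 replicates 1 and 2 and MH63 replicate 2 lay above the reporter-probe level and the other 3 arrays below it. Within HH1 the highest array was 7.54-fold the lowest, where the brighter probe set of the same gene varied 1.10-fold. The log2 difference of the dim probe set was 0.19 with an interval from -1.70 to 2.09, and it turned negative without HH1 replicate 1 (-0.52) or without MH63 replicate 3 (-0.25). The probe sets of HAK5 thus disagree on variation among replicates, and which of them follows the transcript was not tested.

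HAK1 (LOC4335729) was read by a pair of probe sets that gave the same order of arrays within each genotype. The brighter read 2524, 1848 and 2114 in HH1 replicates 1, 2 and 3 and 2304, 1678 and 1789 in MH63 replicates 1, 2 and 3. In both genotypes replicate 1 was highest and replicate 2 lowest. HH1 averaged 2162 ± 340 (SD, n = 3) and MH63 averaged 1924 ± 334 (SD, n = 3), a log2 difference of 0.17 (SE 0.17). The other probe set read 1105, 867 and 977 in HH1 and 958, 744 and 791 in MH63, a log2 difference of 0.24 (SE 0.15). The groups overlapped in both probe sets, since MH63 replicate 1 exceeded HH1 replicate 2. The difference of the brighter probe set fell to 0.053 when HH1 replicate 1 was left out and to 0.079 when MH63 replicate 2 was, and reached 0.28 when HH1 replicate 2 was left out and 0.31 when MH63 replicate 1 was, or with array weights. That of the other ran from 0.16 without HH1 replicate 1 to 0.35 without MH63 replicate 1. The ID of the first ends in _x_at, a mark of probes that can bind related transcripts, and that of the second in _a_at, a mark of probes shared by transcripts of 1 gene.

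AKT1 (LOC4326245), the root uptake channel, stood at 448, 296 and 471 in HH1 replicates 1, 2 and 3 and at 558, 352 and 465 in MH63 replicates 1, 2 and 3. Replicate 2 was lowest in both genotypes, and the groups overlapped. The log2 difference was -0.18 (SE 0.24), with an interval from 0.592-fold to 1.31-fold, and it was 0.027 without HH1 replicate 2 and 0.0025 with array weights. Its probe set can bind related transcripts. HKT1;5 (LOC4327757), the sodium carrier of the xylem, had 119, 73.8 and 87.7 in HH1 and 131, 76.2 and 110 in MH63 in the same order of replicates. Here too replicate 2 was lowest on both sides. The log2 difference was -0.17 (SE 0.26), and its interval from 0.581-fold to 1.36-fold was the widest after that of the dim HAK5 probe set. It was 0.0051 without MH63 replicate 1 and 0.017 with array weights.

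The tandem-pore channels had the largest differences of the 22 tested probe sets, TPKa upward and TPKb downward, and neither passed the test. TPKa (LOC4334137), which in rice sits in the membrane of the large lytic vacuole, read 138, 139 and 106 in HH1 replicates 1, 2 and 3 and 96.4, 105 and 101 in MH63. It was the only one of the 22 tested probe sets whose groups did not overlap, 4.55%, where 8.78% of all tested probe sets did not overlap, 3.51% with HH1 above MH63 and 5.27% with HH1 below. The margin was small, since HH1 replicate 3 at 105.9 lay just above MH63 replicate 2 at 105.2. HH1 averaged 128 ± 18.8 (SD, n = 3) and MH63 averaged 101 ± 4.43 (SD, n = 3). The log2 difference was 0.33 (SE 0.15), with a limma p of 0.064 before adjustment and 1 after it. With single arrays left out it ran from 0.26 without HH1 replicate 2 to 0.46 without HH1 replicate 3, where limma's adjusted p was 0.448.

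TPKb (LOC4342213), which in rice sits in the membrane of small vacuoles, lay on the other side of 0. It read 118, 94.0 and 146 in HH1 replicates 1, 2 and 3 and 146, 141 and 172 in MH63. HH1 replicates 1 and 2 lay below all MH63 arrays, and HH1 replicate 3 above MH63 replicate 2, so the groups overlapped. HH1 averaged 119 ± 25.8 (SD, n = 3) and MH63 averaged 153 ± 16.8 (SD, n = 3). The log2 difference was -0.38 (SE 0.19), with a limma p of 0.090 before adjustment and 1 after it. It ran from -0.53 without HH1 replicate 3 to -0.21 without HH1 replicate 2. Whether the log2 differences of TPKa and TPKb differ from each other was not tested.

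The other HAK carriers above background differed little in their group means. Of the 18 HAK probe sets tested, 7 lay above 0 and 11 below, with log2 differences from -0.28 to 0.24. HAK25 (LOC4330614) was the lowest, with 654, 530 and 783 in HH1 replicates 1, 2 and 3 and 860, 736 and 763 in MH63. HH1 replicate 3 lay within the MH63 values and the other HH1 arrays below them. HH1 averaged 655 ± 126 (SD, n = 3) and MH63 averaged 786 ± 65.3 (SD, n = 3), and the interval of the log2 difference of -0.28 ran from -0.67 to 0.12. That difference was -0.13 without HH1 replicate 2 and -0.41 without HH1 replicate 3. HAK10 (LOC4341573), a carrier known from the vacuole membrane in rice, read 722, 792 and 923 in HH1 and 948, 862 and 1050 in MH63, with only HH1 replicate 3 above an MH63 array. Its log2 difference was -0.23 (SE 0.14) in this probe set and -0.17 (SE 0.15) in the other, which can bind related transcripts, and the former was -0.15 without HH1 replicate 1. HAK11 (LOC4336979) read 181, 130 and 178 in HH1 and 194, 173 and 200 in MH63. Only HH1 replicate 2 lay well apart, and without it the log2 difference of -0.22 became -0.07.

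For HAK15 (LOC4336950) replicate 2 of HH1 stood apart in the other direction. It read 561, 911 and 599 in HH1 replicates 1, 2 and 3 and 751, 700 and 618 in MH63, and the log2 difference was -0.03. HAK23 (LOC4346918) ranged more widely in HH1, at 444, 369 and 546, than in MH63, at 506, 467 and 488, around nearly equal means. Both are read by probes that can bind related transcripts. HAK2 (LOC4326793) and HAK12 (LOC9270408), the latter known in rice for retrieving sodium from the xylem, had log2 differences of -0.01 each, with intervals from -0.35 to 0.33 and from -0.39 to 0.37. HAK18, which is known in rice for moving potassium in the phloem, had a log2 difference of -0.10, HAK9 one of -0.18, HAK13 one of 0.08 and HAK3 one of 0.11. HAK13 was the nearest to the background level of those above it on all arrays, at 45.9 to 66.0 over the 6 arrays.

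Where a gene had more than 1 probe set, their signals differed in brightness and not always in pattern. This concerned 7 genes, all HAK carriers. HAK1 and HAK10 gave matching orders of arrays within each genotype in both of their probe sets. HAK7 (LOC4344235) read 1084, 1333 and 1064 in HH1 replicates 1, 2 and 3 and 1308, 1251 and 1093 in MH63 in its brighter probe set. The dimmer, which can bind related transcripts, read 193, 256 and 215 in HH1 and 284, 206 and 176 in MH63, with more spread in MH63. The log2 differences were -0.07 and 0.01. HAK3 was at 64.2 to 86.5 in a probe set that can bind related transcripts and at 3.83 to 5.02 in one with a plain ID, far below background. For HAK17 and HAK22 both probe sets stayed below background on every array.

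**Figure D3:**
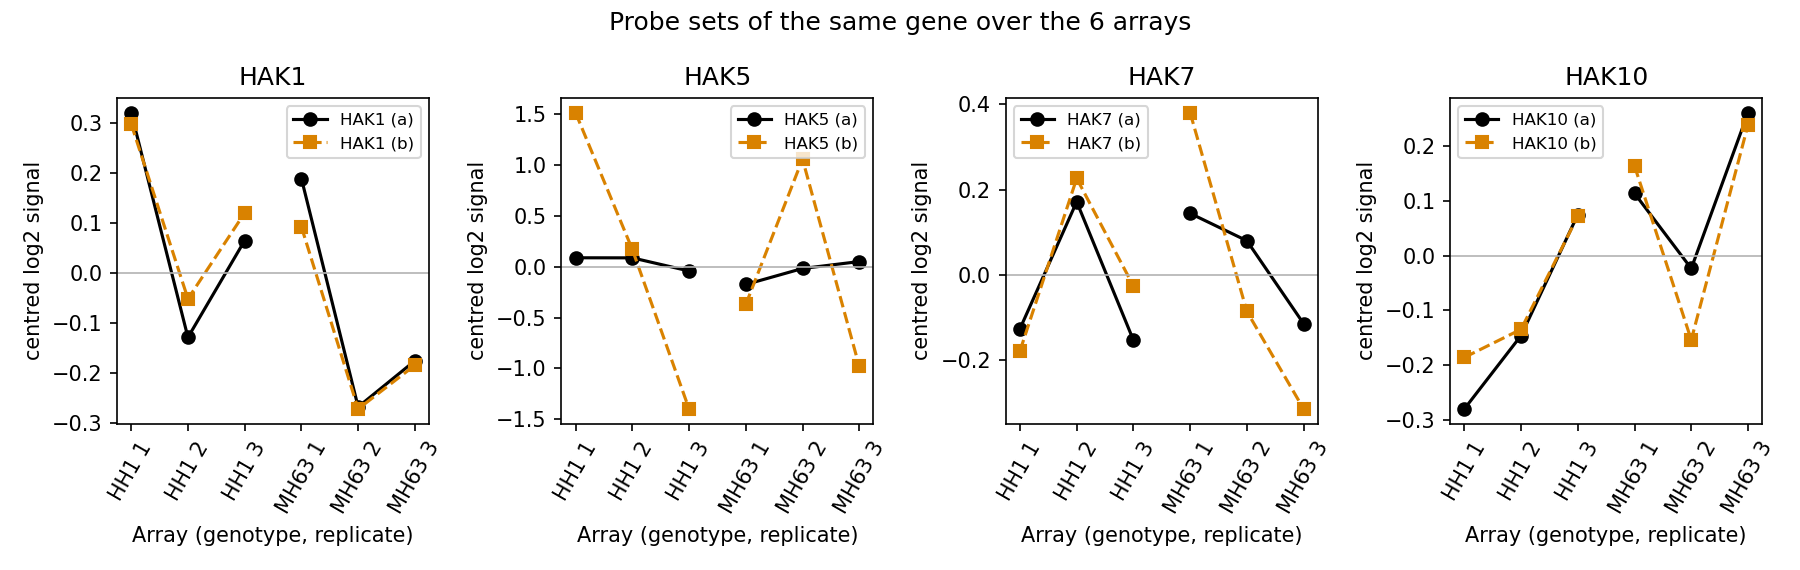
log2 signal relative to the mean of the 6 arrays for both probe sets of HAK1, HAK5, HAK7 and HAK10, by array, with lines joining arrays of a genotype for reading only. The probe sets of HAK1 and of HAK10 run together, those of HAK7 less so, and for HAK5 the dimmer (b) spans a wide range while the brighter (a) stays near 0. Vertical scales differ between panels.

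Taking each gene by its brightest probe set, 13 of the 18 genes tested (72.2%) lay below 0 and 5 above, with a median log2 difference of -0.08. The split depended on the arrays used, with 9 genes above 0 and a median of -0.0068 without MH63 replicate 1. It had 8 above 0 with array weights or without HH1 replicate 2, and 7 without HH1 replicate 1 or HH1 replicate 3. Without MH63 replicate 2 or MH63 replicate 3 it stayed at 5 above 0, with medians of -0.12 and -0.11. The median over all tested probe sets moved too, from -0.0136 to 0.0088 without MH63 replicate 1. Of all 14815 genes tested, 58.4% lay below 0, with a median of -0.03. In bulk root RNA, fewer cells of a type and less RNA per cell cannot be told apart in any of these values.

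Spread among replicates followed that of the array as a whole. The median SD of the log2 signal over the 22 member probe sets was 0.22 in HH1 and 0.14 in MH63, and over all tested probe sets 0.20 and 0.15. HH1 had the larger SD in 15 of 22 members (68.2%) and in 64.1% of all tested probe sets. After the dim probe set of HAK5, the largest HH1 spreads were those of HAK15, AKT1, HKT1;5, TPKb and HAK23, whose highest HH1 arrays were 1.62-fold, 1.59-fold, 1.62-fold, 1.55-fold and 1.48-fold their lowest.

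Several members had their lowest signal in replicate 2. That array was the lowest of its genotype in 10 of 22 members in HH1 and in 15 of 22 in MH63, against 44.9% and 44.0% of all tested probe sets. The members' share in HH1 was thus close to that of all tested probe sets. In 9 of 22 (40.9%) replicate 2 was lowest in both genotypes, against 24.9% of all tested probe sets. These were AKT1, HKT1;5, TPKb, HAK11, HAK18, HAK23, HAK25 and both probe sets of HAK1. Of the 8 root marker probe sets, replicate 2 was lowest for 8 in MH63 and for 6 in HH1. Their mean log2 signal, relative to each probe set's mean over the 6 arrays, was -0.26 in MH63 replicate 2 and -0.34 in HH1 replicate 2, but without the 3 probe sets of OsCASP1 it was -0.30 and -0.041. In HH1 replicate 2 Lsi1 was not the lowest, at 7013, 7463 and 8571 in HH1 replicates 1, 2 and 3. OsSCR1, which the means include, was highest in HH1 replicate 2 but was below background on every array. Green tissue markers went the other way on these arrays, with a mean over 16 probe sets of 0.31 in HH1 replicate 2 and 0.69 in MH63 replicate 2, beside 0.48 in MH63 replicate 1 and -0.60 to -0.39 on the other 3. In its first probe set OsCASP1, which builds the Casparian strip of the endodermis, read 977, 550 and 1242 in HH1 replicates 1, 2 and 3 and 1418, 944 and 1353 in MH63. The part of these markers in the values of AKT1, HKT1;5 and HAK1 was not tested. The full order of the replicates was the same in both genotypes for 5 of 22 members (22.7%) and for 23.4% of all tested probe sets.

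**Figure D4:**
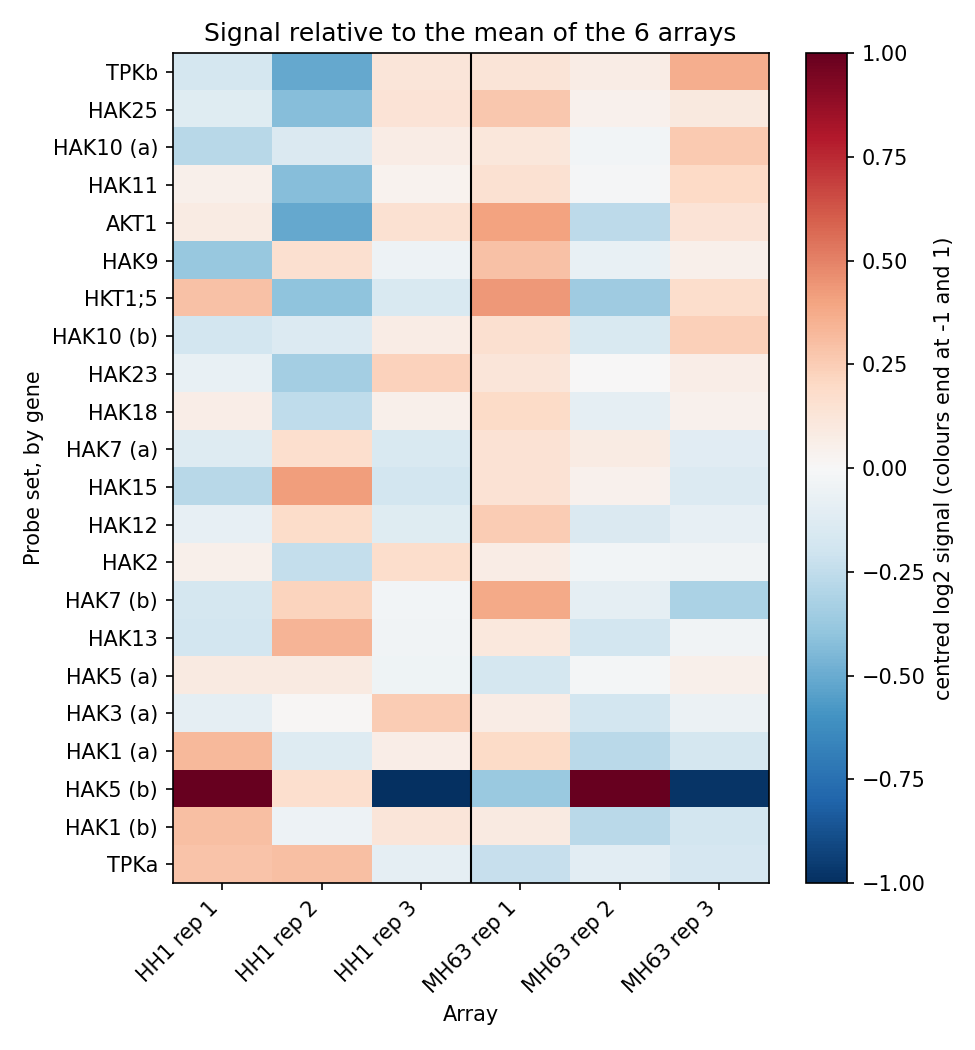
Centred log2 signal (colour, from -1 in blue to 1 in red) of the 22 tested probe sets (rows, from the lowest to the highest difference of HH1 minus MH63) on the 6 arrays (columns). The columns do not split by genotype, HH1 replicate 2 is low for AKT1, TPKb, HAK25 and HKT1;5 and high for HAK15, and HAK5 (b) runs beyond the colour scale.

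Members that lie next to each other in the annotation could be compared in 1 case. HAK27 and HAK16 have no gene between them in the RefSeq gene order, and both were dim. HAK27 stayed between 13.0 and 26.1 on the 6 arrays. HAK16 read 27.9, 20.6 and 23.2 in HH1 replicates 1, 2 and 3 and 27.4, 37.2 and 22.9 in MH63, with MH63 replicate 2 alone just above the reporter-probe level of its array. HAK20 was below background throughout, and HAK19, with 1 gene between them, has no listed probe set.

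Regulators and partners of these proteins, listed by name as the kinases and calcium sensors that switch on AKT1 and the sodium exchanger SOS1, vacuolar channels and the salt tolerance gene HAL3, showed no call either. HAL3 was not well above background on any array and was not tested. Of 7 probe sets tested for 5 genes, 2 lay above 0 and 5 below, none passed (limma) and no groups failed to overlap. Of all tested probe sets 0.112% passed and in 8.78% the groups did not overlap, so few or none were to be looked for among 7. CIPK23, the kinase that activates AKT1, had log2 differences of 0.21 and -0.13 in its probe sets. CIPK24 and CBL4, the kinase and calcium sensor of the SOS pathway, had -0.09 and -0.07, and CBL10 had 0.26 with an interval from -0.12 to 0.65. OsTPC1, a cation channel, had -0.09 and -0.16.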

How the data were processed

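Per the labels, total RNA from roots was labelled from 6 ug by the array maker's protocol and hybridised to 1 array per sample, 6 arrays in all. The deposited values are probe set intensities on a linear scale. Per the submitters' processing notes MAS5 was used, with no version. The sources used here do not state the scaling of arrays and give no detection calls. Control probe sets were set aside, leaving 57194. Deposited signals were used as log2 values with no offset. Genotypes were compared with limma 3.58.1 in R 4.3.3 (lmFit, eBayes with a trend, two-sided), adjusted by Benjamini-Hochberg over 28597 probe sets. The fit was also run on simulated arrays with known changes, whose recovery is not given here.

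Probe sets were joined to genes through the platform annotation, in which 22436 have 1 gene and 95 several, and named from RefSeq (assembly ASM3414082v1), whose gene positions served only for the order of neighbouring genes. No sequences were used here. The members, lists and tests were chosen with earlier results of these data known. Genes named with all arrays were those whose groups did not overlap, the 4 smallest p each way, the 2 best measured of each family, the 6 largest HH1 and 4 largest MH63 ranges of log2 signal among probe sets above the reporter-probe level on at least 1 array, and HKT1;5, AKT1, HAK1 and HAK5; others are named by their place in the text and were chosen after their values were seen. Alternatives were quantile normalization, median centring, other filters, an offset of 13.2, no trend, array weights, a replicate block and leaving out each array. Figures were drawn with matplotlib 3.10.9.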

Additional observations from a re-analysis of the deposited data

How the results depend on the processing

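No member probe set passed under any alternative (limma), and the smallest adjusted p was 0.448, for TPKa without HH1 replicate 3. Before adjustment, limma's p was under 0.05 for 1 member of 22 with array weights (HAK1) and for 1 with the replicate block (TPKb). With HH1 replicate 3 left out it was so for 3 (TPKa, TPKb and HAK25), and in the other alternatives for 0. Over all 28597 tested probe sets the counts were 1756 with array weights, 1334 with the replicate block and 2056 without HH1 replicate 3. The count over all probe sets, 32 of 28597, was 54 of 57194 with no brightness filter and 8 of 14299 in the brightest 25%. Over the same 28597 it was 50 with array weights and 17 with the replicate block. Deviations of same-numbered replicates from their group means correlated at -0.117, 0.451 and 0.312, and not every array correlated best with its own number, so the numbers were not taken as pairs. The count over all probe sets ran from 2 (MH63 replicate 1 left out) to 302 (HH1 replicate 3 left out). It was 3 with HH1 replicate 1, 8 with MH63 replicate 3 and 19 with MH63 replicate 2 left out. The cause of these changes in the count was not tested. The median log2 difference of the member genes, -0.08, ran from -0.12 to -0.0068 and stayed below 0.

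Of 192 values of the 14 named probe sets under alternatives, 179 kept their sign and 13 did not, and none was called. With array weights AKT1 turned to 0.0025 and HKT1;5 to 0.017. The other sign changes came with 1 array left out, where the log2 difference ran from -0.36 to 0.027 for AKT1, from -0.39 to 0.0051 for HKT1;5, from -0.24 to 0.10 for HAK15, from -0.27 to 0.017 for HAK23, from -0.14 to 0.21 for the dim HAK7 probe set and from -0.52 to 0.94 for the dim HAK5 probe set. The other 8 kept their sign in all alternatives run. Signals near the reporter-probe level, as for the dim HAK5 probe set, limit what can be compared.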
